A study of Mus musculus with 18 samples.

Results

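The 6 genes described here encode SOX transcription factors of cartilage and mesenchyme: Sox9, Sox8, Sox5, Sox6, Sox4 and Sox11. They were chosen by name, as the 6 rows whose gene identifiers map to these symbols among 38243 genes in each count table. Their fragment counts were compared among 3 tissues of the lower jaw and between genotypes. RNA had been measured in 18 libraries from 6 female C57BL/6 mouse embryos at embryonic day 16.5. Of these, 3 embryos carried Fgfr2+/S252W, a point mutation that models Apert syndrome, and 3 were unaffected Fgfr2+/+ embryos. As inferred from the stems of the sample descriptions, each embryo gave 1 library each of mandibular bone, Meckel's cartilage (MC) and mandibular condylar cartilage, captured by laser from unfixed frozen sections of the head. Because the mutation changes 1 residue of the receptor, the Fgfr2 level does not check the genotype label.

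SOX proteins bind DNA through an HMG box and are grouped by its sequence. SOX9 is the factor required for chondrocyte fate, and SOX8 belongs with it to the SOXE group. SOX5 and SOX6, the SOXD group, have no activation domain of their own and act with SOX9 on genes of the cartilage matrix. SOX4 and SOX11, the SOXC group, are active in embryonic mesenchyme and progenitors, including perichondrial cells. MC is the rod of cartilage in the embryonic jaw on whose side the mandibular bone forms, while condylar cartilage is a secondary cartilage that arises from the periosteum of that bone.

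In the coordinates of GRCm38 (mm10), Sox9 lies on the plus strand of chromosome 11 from 112782224 to 112787760, and the others lie on minus strands. Sox8 spans 25565892 to 25570686 on chromosome 17. Sox5 spans 143828425 to 144209568 on chromosome 6, and Sox6 spans 115471344 to 116038744 on chromosome 7. Sox4 spans 28948919 to 28953713 on chromosome 13, and Sox11 spans 27340697 to 27342709 on chromosome 12. Each count is of fragments over all annotated exons of the gene, UTRs included where annotated. Counting did not use strand. Of the 4795 exon bases of Sox4, 2616 (54.6%) also belong to an exon of the antisense gene Gm26735, and fragments that touch both genes are not counted under the tool's default. The Sox4 level is therefore read from part of its exon and is set low against the other genes. Sox11 is annotated with 2013 exon bases in the authors' annotation and 8311 in GENCODE M21 on the same build, so fragments beyond the shorter model were not counted. For Sox5 the lengths are 7613 and 14376, and for Sox6 they are 8852 and 14832. Sox4, Sox8 and Sox9 have equal lengths in both annotations.

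Promoter sequence from RefSeq (GRCm38.p6) was at hand for 5 of the 6 genes, all but Sox9. The 250 bases before the annotated start are shown for Sox5, Sox6 and Sox8, which were higher together in cartilage as described further on. Each is written 5′ to 3′ on the gene's own strand, with matches to the SOX core letters ACAAT on either strand (ATTGT on the other) in capitals. The Sox5 window is chr6:143947107-143947356, at a start 262462 bases inside the annotated gene, the Sox6 window is chr7:116038745-116038994 and the Sox8 window is chr17:25570687-25570936, the last 2 directly before the annotated 5′ end.
Sox5: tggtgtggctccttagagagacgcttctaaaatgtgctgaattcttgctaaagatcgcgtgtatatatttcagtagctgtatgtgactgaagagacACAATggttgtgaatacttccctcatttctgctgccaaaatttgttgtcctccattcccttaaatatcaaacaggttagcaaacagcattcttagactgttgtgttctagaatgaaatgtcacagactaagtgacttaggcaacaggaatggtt
Sox6: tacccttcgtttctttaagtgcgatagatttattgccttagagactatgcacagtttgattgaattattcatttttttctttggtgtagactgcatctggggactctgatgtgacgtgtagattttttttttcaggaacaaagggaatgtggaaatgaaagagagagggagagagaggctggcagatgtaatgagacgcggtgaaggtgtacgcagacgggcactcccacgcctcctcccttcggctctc
Sox8: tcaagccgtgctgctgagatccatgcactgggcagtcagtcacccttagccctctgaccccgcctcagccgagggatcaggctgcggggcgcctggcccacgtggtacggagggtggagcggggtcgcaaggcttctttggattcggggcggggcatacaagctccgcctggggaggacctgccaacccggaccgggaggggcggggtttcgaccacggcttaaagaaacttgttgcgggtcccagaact
The letters occur once in the Sox5 window, beginning 154 bases before the start, and are not in the windows of Sox6, Sox8, Sox4 or Sox11. Among all 32851 windows of the same length in the table, 27.7% hold them. GC content was 39.6% in the Sox5 window, 45.2% in that of Sox6 and 65.6% in that of Sox8.

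Libraries held 8218548 to 15585778 counted fragments. The gene Gm42418 took 24.1 to 39.4% of them in MC, 5.59 to 9.33% in bone and 10.9 to 20.2% in condylar cartilage, and mitochondrial genes took 19.4 to 38.1%. Levels are therefore given in RPKM (fragments counted per kilobase of exon, relative to the sequenced total) with library sizes scaled by TMM, which matches the bulk of genes between libraries. Of all genes, 11469 exceeded 1 FPKM in at least 50% of libraries, and all 6 SOX genes were among them. Tissue labels were compared with marker genes. Over 6 chondrocyte markers (Col2a1, Acan, Col9a1, Matn1, Hapln1 and Cnmd) the summed level was 6084 to 7280 RPKM in condylar cartilage and 14.4 to 71.5 in bone. Over 7 markers of osteoblasts and osteocytes it was 5788 to 9232 in bone, 278 to 765 in MC and 1612 to 6480 in condylar cartilage.

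In MC, Fgfr2+/+ library 1 stood apart. Its summed chondrocyte markers were 69.1 RPKM, a sum in the range of bone that is mostly Col2a1, while the other 5 MC libraries held 381 to 1785. Col2a1, the main cartilage collagen, was at 41.6 RPKM there and at 306 to 1410 in the other MC libraries. Not all markers were at the level of bone. Acan was at 13.3 RPKM in this library and at no more than 0.93 in bone, and Col9a1 and Cnmd were at 6.32 and 6.03 or above in every MC library and at no more than 0.34 and 0.10 in bone. Ibsp, a bone matrix gene, was at 111 RPKM there and at no more than 4.65 in the others. Both condylar libraries numbered 3 also held more of the osteoblast markers, 6480 RPKM in Fgfr2+/S252W and 4101 in Fgfr2+/+, against 1612 to 2056 in the other 4. Without these 3 libraries each tissue difference that had passed for a SOX gene kept its direction and passed again. The one that moved most was Sox4 between the cartilages, from a log2 difference of -1.72 to -2.56. Other values without them are given beside the results they change.

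Sox9, the driver of the chondrocyte program, was highest in condylar cartilage. Its 6 condylar libraries held 62.0, 90.3 and 120.3 RPKM (lowest, median and highest). In MC they held 3.64, 17.1 and 25.0, and in bone 3.73, 5.21 and 5.53. No condylar library overlapped those of the other tissues, whereas MC library 1 of Fgfr2+/+ fell below every bone library. By limma-voom with the embryo as a block, Sox9 was 18.8-fold higher in condylar cartilage than in bone (log2 difference 4.23, SE 0.22, adjusted p = 1.5e-10). It was 6.46-fold higher in condylar cartilage than in MC (log2 difference 2.69, SE 0.24, adjusted p = 4.4e-08). In MC it was 2.91-fold higher than in bone (log2 difference 1.54, SE 0.25, adjusted p = 8.6e-05), and the log2 difference was 1.87 without Fgfr2+/+ MC library 1. With RNA from whole captured tissue, fewer cells of a type and less RNA per cell cannot be told apart, and this holds for each level reported here.

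**Figure D1:**
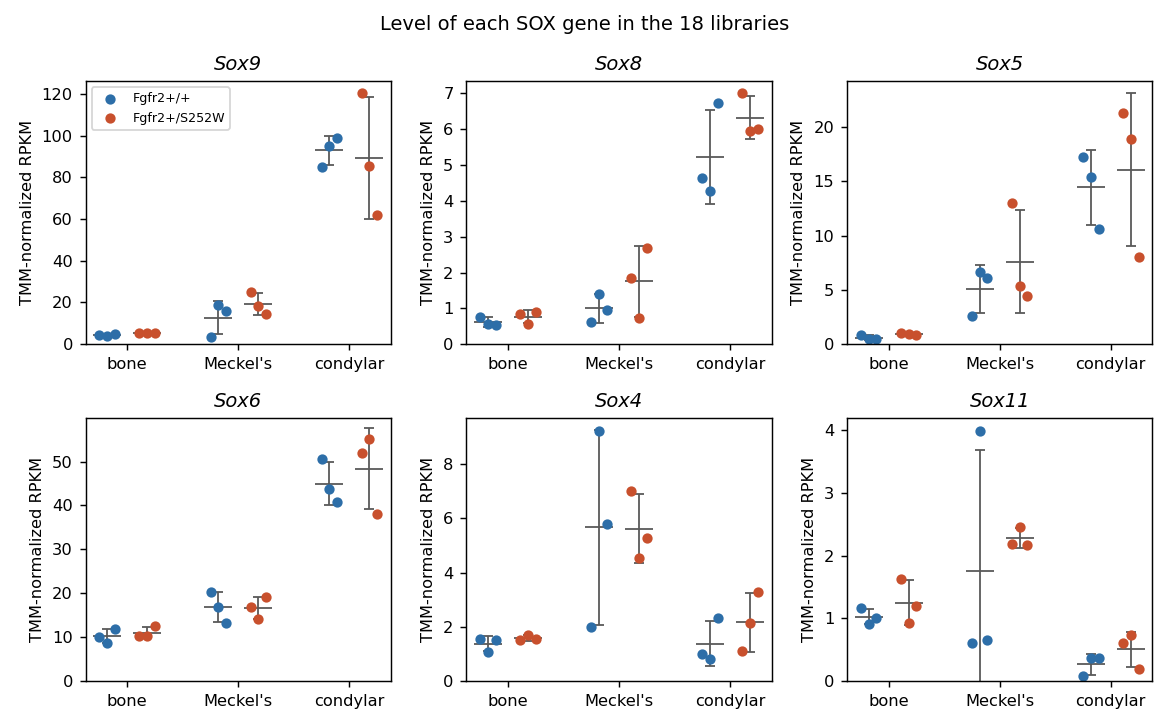
Level of each SOX gene, in TMM-normalized RPKM, in the 18 libraries by tissue and genotype; points are libraries (replicates 1 to 3 from left to right), horizontal lines are group means and bars are SD (n = 3, cut at 0 where the mean less the SD is negative). Sox9, Sox8, Sox5 and Sox6 were highest in condylar cartilage, with Sox9 at 62.0 to 120.3 there, whereas Sox4 and Sox11 had their highest group means in MC.

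Sox8, which shares the SOXE group with Sox9 and is the less abundant of the pair, followed the same order of tissues at lower levels. Condylar libraries held 4.29, 5.98 and 7.02 RPKM (lowest, median and highest), MC libraries 0.63, 1.19 and 2.69, and bone libraries 0.53, 0.67 and 0.89. Condylar cartilage stood clear of the other tissues, and MC overlapped with bone. Sox8 was 8.33-fold higher in condylar cartilage than in bone (log2 difference 3.06, SE 0.25, adjusted p = 2.8e-08) and 4.51-fold higher than in MC (log2 difference 2.17, SE 0.30, adjusted p = 8.7e-06). The difference between MC and bone was small, 1.85-fold (log2 difference 0.89, SE 0.34, adjusted p = 0.037). It rested on 10 to 52 fragments per library and passed or missed the threshold with the setting. The adjusted p was 0.052 under edgeR's filterByExpr and 0.092 with no filter, and it missed the threshold when any of 8 libraries was left out, with adjusted p from 0.052 to 0.13.

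The SOXD genes were higher in both cartilages than in bone. Sox5 was at 0.50, 0.86 and 1.05 RPKM in bone (lowest, median and highest), 2.56, 5.73 and 13.0 in MC and 8.07, 16.3 and 21.3 in condylar cartilage. All MC and condylar libraries exceeded all bone libraries, while MC and condylar cartilage overlapped. The Sox5 level was 7.60-fold higher in MC than in bone (log2 difference 2.93, SE 0.30, adjusted p = 9.1e-07), the largest of the 6 differences in that comparison. It was 19.9-fold higher in condylar cartilage than in bone (log2 difference 4.32, SE 0.28, adjusted p = 1.6e-09). Between the cartilages it was 2.62-fold higher in condylar cartilage (log2 difference 1.39, SE 0.29, adjusted p = 0.00058).

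Sox6 was the SOX gene with the highest level in bone, where it was at 8.59, 10.2 and 12.4 RPKM (lowest, median and highest). It was at 13.3, 16.8 and 20.2 in MC and at 38.0, 47.1 and 55.2 in condylar cartilage, and the 3 tissues did not overlap. It was 4.41-fold higher in condylar cartilage than in bone (log2 difference 2.14, SE 0.13, adjusted p = 1.0e-09) and 2.78-fold higher than in MC (log2 difference 1.48, SE 0.14, adjusted p = 8.8e-08). MC exceeded bone 1.58-fold (log2 difference 0.66, SE 0.14, adjusted p = 0.0010). This smallest called difference of Sox6 depends on the scaling. With total counts and no TMM factors the median of all genes was 1.07 log2 units lower in MC than in bone (-1.07), and Sox6 then read -0.41, which is 0.65 above that median. Sox8, at -0.18, and Sox11, at -0.43, also turned sign in that setting and stood 0.88 and 0.64 above the median. Sox9 read 0.46 there (adjusted p = 0.095), which is 1.53 above it. The same scaling moved the median to -0.30 for condylar cartilage against bone and to 0.76 between the cartilages, where no called SOX gene changed sign.

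The SOXC genes had another distribution. Sox4 was at 1.07, 1.53 and 1.69 RPKM in bone (lowest, median and highest), 2.00, 5.54 and 9.22 in MC and 0.81, 1.61 and 3.26 in condylar cartilage. Every MC library exceeded every bone library, and bone overlapped with condylar cartilage. Sox4 was 3.54-fold higher in MC than in bone (log2 difference 1.82, SE 0.30, adjusted p = 0.00011) and lower in condylar cartilage than in MC (log2 difference -1.72, SE 0.32, adjusted p = 0.00019). Condylar cartilage and bone differed by 0.11 on the log2 scale (95% CI -0.60 to 0.81, adjusted p = 0.82). Among condylar libraries the highest Sox4 levels, 3.26 and 2.31 RPKM, were in both libraries numbered 3, which also held most of the osteoblast markers, and without these the difference from bone read -0.27 (adjusted p = 0.62).

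Sox11 had the fewest fragments, 2 to 64 per library, so that counting error weighs most on it. Its level was 0.91, 1.09 and 1.63 RPKM in bone (lowest, median and highest), 0.60, 2.18 and 3.99 in MC and 0.07, 0.37 and 0.73 in condylar cartilage. All condylar libraries lay below all bone libraries, and MC overlapped with both other tissues. Sox11 lay below 1 RPKM in every condylar library and passed the filter through MC and bone alone. It was lower in condylar cartilage than in bone (log2 difference -1.59, SE 0.47, adjusted p = 0.0097) and than in MC (log2 difference -2.27, SE 0.43, adjusted p = 0.00024). The filter favoured both differences, so these p-values add no support to the levels. Between MC and bone the log2 difference of 0.68 (95% CI -0.14 to 1.504) did not pass the test (adjusted p = 0.16). It read 0.15 without Fgfr2+/+ MC library 2, which held 3.99 RPKM, and 0.98 (adjusted p = 0.038) without MC library 1 of Fgfr2+/+ and both condylar libraries numbered 3.

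**Figure D2:**
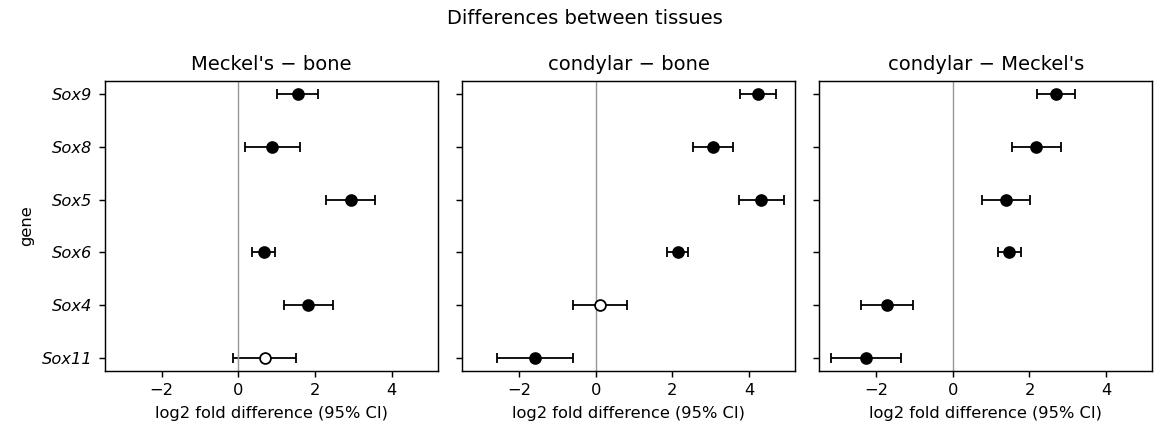
Log2 fold differences between tissues, averaged over genotypes, with 95% confidence intervals from limma-voom with the embryo as a block; filled points passed at an adjusted p below 0.05. In the comparison of condylar cartilage with bone, Sox9 (4.23) and Sox5 (4.32) differed most and Sox11 was lower (-1.59). Sox11 lay below 1 RPKM in every condylar library and passed the filter through MC and bone alone.

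Counted together, 5 of the 6 genes were higher in MC than in bone and none was lower, where 24.6% of all genes tested were higher and 24.7% lower. With total counts and no TMM factors 2 of the 6 were called there. In condylar cartilage against bone, 4 were higher (22.6% of all genes), of which Sox8 lay below 1 RPKM in every bone library. The 1 that was lower, Sox11, passed the filter through MC and bone alone, so it is not set against the 24.2% of all genes that were lower. Between the cartilages, 4 were higher in condylar cartilage (28.5% of all genes) and 2, Sox4 and Sox11, were lower. Since Sox11 passed the filter without condylar cartilage, only Sox4 is set against the 29.1% of all genes that were lower. Tissues did not overlap for 3 of the 6 genes between MC and bone, against 24.9% of all genes. They did not overlap for 5 between condylar cartilage and bone, Sox8 and Sox11 among them, against 31.9%, and for 3 between the cartilages, against 29.5%. The median log2 difference of the 6 genes was 1.21, 2.60 and 1.43 in the 3 comparisons in this order, while that of all genes was 0.0024, 0.0027 and -0.0077. The 3 comparisons share libraries. Without MC library 1 of Fgfr2+/+ the counts of called SOX genes were 5, 5 and 6 as with it, and without it and both condylar libraries numbered 3 they were 6, 5 and 6.

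The tissue differences were also read within each genotype. In Fgfr2+/+ libraries alone, Sox9 was higher in condylar cartilage than in bone by 4.46 log2 units, and in Fgfr2+/S252W libraries alone by 4.01. For Sox5 these log2 differences were 4.57 and 4.06, for Sox8 3.08 and 3.04 and for Sox6 2.15 and 2.13, and all of them passed the test. Sox8 between MC and bone did not pass in Fgfr2+/+ alone (log2 difference 0.61, adjusted p = 0.38). Sox11 between condylar cartilage and bone did not pass in Fgfr2+/S252W alone (log2 difference -1.26, adjusted p = 0.13). None of the 6 genes passed the test of a genotype effect that differs between tissues, as given further on.

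Levels of 2 genes within 1 library give a ratio that does not depend on how libraries are scaled. The Sox9 to Sox6 ratio of RPKM was 0.42, 0.44 and 0.54 in bone (lowest, median and highest of 6 libraries), 0.18, 1.15 and 1.496 in MC and 1.55, 1.93 and 2.42 in condylar cartilage. Sox6 thus exceeded Sox9 in every bone library and Sox9 exceeded Sox6 in every condylar library. The lowest MC value was again that of Fgfr2+/+ library 1, and the mean difference between the cartilages was 1.20 log2 units with this embryo and 0.79 without it. The Sox9 to Sox5 ratio was 5.06, 6.16 and 10.2 in bone, 1.42, 2.71 and 3.47 in MC and 4.54, 5.90 and 9.28 in condylar cartilage. It was lower in MC than in bone in 6 of 6 embryos, and higher in condylar cartilage than in MC in 6 of 6. Between condylar cartilage and bone it differed by -0.07 log2 units (SD 0.26 over 6 embryos), with 2 embryos higher and 4 lower.

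The Sox9 to Sox4 ratio ran from 2.73 to 3.59 in bone, from 1.82 to 4.05 in MC and from 19.0 to 117 in condylar cartilage. It was higher in condylar cartilage in all 6 embryos against either tissue, by 4.12 log2 units against bone (SD 1.07) and by 4.40 against MC (SD 1.24). The Sox9 to Sox8 ratio was 2.20-fold higher in condylar cartilage than in bone, in 6 of 6 embryos. The Sox4 to Sox11 ratio was higher than in bone in 6 of 6 embryos in MC (2.40-fold) and in condylar cartilage (3.86-fold). In condylar cartilage this ratio rested on 2 to 18 Sox11 fragments per library and ran from 1.82 to 17.1. Its difference from bone there had an SD of 1.32 log2 units. Over 6 embryos the exact sign-flip permutation test (two-sided) cannot give a p below 0.03125. Of 15 tests (5 ratios in 3 tissue pairs), 9 reached it, but their Benjamini-Hochberg adjusted p was 0.0521, so that 0 of 15 passed.

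Fgfr2+/S252W libraries were compared with those of Fgfr2+/+ littermates in each tissue. None of the 6 genes passed the test in any of them. By limma-voom 10 of 11469 genes passed for bone (0.0872%), 0 for MC (0%) and 0 for the condylar libraries (0%). With p unadjusted and below 0.05 the count was 1 SOX gene, Sox9 in MC, beside 932 of all genes in bone, 1761 of all genes in MC and 351 in the condylar libraries. The edgeR quasi-likelihood test called 4, 90 and 0 genes in the 3 tissues and DESeq2 called 16, 417 and 3, and neither tool called any of the 6. Confidence intervals were wide, with a median half-width of 0.94 log2 units in bone, 0.92 for MC and 0.67 for condylar cartilage before adjustment over all genes, so that differences of this size and somewhat larger could be missed.

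**Figure D3:**
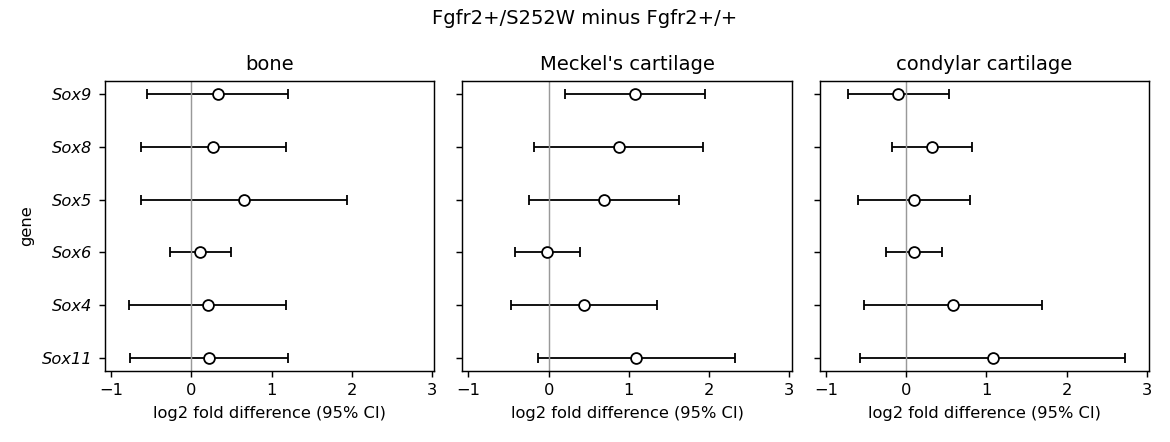
Log2 fold differences between Fgfr2+/S252W and Fgfr2+/+ libraries in each tissue, with 95% confidence intervals from limma-voom (3 libraries a group); no gene passed at an adjusted p below 0.05. Only the interval of Sox9 in MC, 0.20 to 1.95, lies clear of 0, and that difference was 0.16 without MC library 1 of Fgfr2+/+.

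In MC the Sox9 level was 25.0, 18.5 and 14.5 RPKM in the 3 Fgfr2+/S252W libraries and 3.64, 18.8 and 15.8 in the 3 Fgfr2+/+ libraries. Apart from library 1 of Fgfr2+/+, the genotypes overlapped. The log2 difference was 1.07 (SE 0.42, 95% CI 0.20 to 1.95), with an adjusted p of 0.24 by limma-voom. Without that library, whose summed chondrocyte markers were 69.1 RPKM, it was 0.16 (adjusted p = 0.86). Sox5 was at 13.0, 5.32 and 4.41 RPKM in Fgfr2+/S252W and at 2.56, 6.61 and 6.13 in Fgfr2+/+. Its highest value was in Fgfr2+/S252W library 1, which also held the highest chondrocyte marker sum of MC, 1785 RPKM. The log2 difference of Sox5 was 0.69 (95% CI -0.24 to 1.63, adjusted p = 0.47), and it read 0.16 without library 1 of Fgfr2+/+ and 0.15 without library 1 of Fgfr2+/S252W. Sox6, in contrast, was at 16.7, 14.1 and 19.1 RPKM in Fgfr2+/S252W and at 20.2, 16.9 and 13.3 in Fgfr2+/+, and differed by -0.01 (95% CI -0.42 to 0.39, adjusted p = 0.98).

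Sox8 in MC was at 1.84, 0.72 and 2.69 RPKM in Fgfr2+/S252W and 0.63, 1.41 and 0.96 in Fgfr2+/+ (log2 difference 0.87, 95% CI -0.18 to 1.92, adjusted p = 0.42). It was lowest, 0.48, without library 1 of Fgfr2+/+ and highest, 1.31, without library 2 of Fgfr2+/S252W. Sox4 was at 7.02, 4.55 and 5.29 RPKM in Fgfr2+/S252W and 2.00, 9.22 and 5.79 in Fgfr2+/+. Its log2 difference, 0.44 (adjusted p = 0.66), turned to -0.35 (adjusted p = 0.73) when MC library 1 of Fgfr2+/+ was left out. Sox11 spread most among the Fgfr2+/+ libraries, 0.60, 3.99 and 0.65 RPKM, while the Fgfr2+/S252W libraries held 2.19, 2.46 and 2.17. The log2 difference of Sox11 was 1.09 (95% CI -0.14 to 2.32, adjusted p = 0.38) and lay between 0.49 and 1.83 when 1 library was left out. Genotypes overlapped in MC for all 6 genes, where they did not overlap for 13.4% of all genes.

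In bone, 2 of the 6 genes did not overlap between genotypes, where 20.4% of all genes did not. These were Sox9, at 5.36, 5.46 and 5.53 RPKM in Fgfr2+/S252W and 4.22, 3.73 and 5.05 in Fgfr2+/+, and Sox5, at 1.05, 0.90 and 0.89 against 0.83, 0.51 and 0.50. In both, every Fgfr2+/S252W library lay above every Fgfr2+/+ library, and neither difference passed the test. The log2 difference was 0.33 for Sox9 (95% CI -0.55 to 1.21, adjusted p = 0.93) and 0.66 for Sox5 (95% CI -0.62 to 1.94, adjusted p = 0.87). Chondrocyte markers summed to 51.8 to 71.5 RPKM in Fgfr2+/S252W bone and to 14.4 to 42.5 in Fgfr2+/+ bone, and their part in these values was not tested. The markers read in different directions: Col2a1 had means of 54.4 RPKM in Fgfr2+/S252W and 20.7 in Fgfr2+/+, while Acan was at 0.03 to 0.40 in Fgfr2+/S252W and at 0.51 to 0.93 in Fgfr2+/+, and neither passed the test. Osteoclast markers summed to 732 to 995 against 424 to 534, and erythroid markers to 404 to 769 against 1626 to 1956, with no overlap of the genotypes in either. Macrophage markers summed to 96.0 to 134 RPKM against 50.5 to 74.0, and Gm42418 took 5.59 to 6.49% of fragments against 8.57 to 9.33%, also without overlap, and the part of these in the values was not tested. The other 4 genes differed by 0.11 to 0.27 log2 units, with adjusted p from 0.95 to 0.97.

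In condylar cartilage the genotypes overlapped for all 6 genes, where they did not overlap for 9.77% of all genes. Sox9 was at 120.3, 85.6 and 62.0 RPKM in Fgfr2+/S252W and at 85.1, 94.95 and 98.7 in Fgfr2+/+ (log2 difference -0.09, 95% CI -0.73 to 0.54). Sox5 was at 21.3, 18.9 and 8.07 RPKM in Fgfr2+/S252W and at 17.2, 15.4 and 10.6 in Fgfr2+/+ (log2 difference 0.10, 95% CI -0.60 to 0.80). Its lowest level in each genotype was in library 3, and the same was so for Sox6, at 38.0 and 40.7 RPKM there and 43.7 to 55.2 in the other 4. Leaving out both of these libraries gave log2 differences of 0.18 for Sox9, 0.30 for Sox5 and 0.19 for Sox6. Sox11 had the largest difference, 1.08 (95% CI -0.57 to 2.73), from 18, 17 and 3 fragments in Fgfr2+/S252W and 2, 9 and 8 in Fgfr2+/+. It read 0.36 without library 1 of Fgfr2+/+, which held the 2 fragments, and 1.52 without library 3 of Fgfr2+/S252W. Adjusted p was 0.998 for each of the 6 genes.

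Whether the genotype effect differed between tissues was tested as an interaction, and 0 of the 6 genes passed in any pair. Among all genes 4 (0.0349%) passed between MC and bone, 0 (0%) between condylar cartilage and bone and 0 (0%) between the cartilages, while edgeR called 1, 0 and 0 genes and DESeq2 called 68, 2 and 40. At an unadjusted p below 0.05 the SOX genes counted 0, 0 and 1. That 1 was Sox9 between condylar cartilage and MC (difference of log2 effects -1.01, 95% CI -2.01 to -0.01), with an adjusted p of 0.47 by limma-voom, and it read -0.30 without MC library 1 of Fgfr2+/+. Among the ratios within a library, genotypes did not overlap in 2 of 15 comparisons. These were Sox9 to Sox6 in bone, 0.23 log2 units higher in Fgfr2+/S252W, and Sox9 to Sox4 in MC, 0.65 higher. The exact permutation test of 3 against 3 (two-sided) gave p = 0.1 for both, the smallest it can give.

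The known targets of SOX9, SOX5 and SOX6 in the cartilage matrix were read beside the SOX genes. Of 19 listed genes, 16 passed the filter on low levels. Of these 16, 9 lay below 1 RPKM in every bone library and so passed through the cartilage libraries, and no count or median against bone is given. Col11a1, a fibrillar collagen gene that osteoblasts also express, was lower in MC than in bone, with means of 119 and 215 RPKM (log2 difference -0.90, adjusted p = 4.9e-05). Between the cartilages 12 of the 16 were higher in condylar cartilage (28.5% of all genes) and none was lower (29.1%). Col2a1 had means of 4300 RPKM in condylar cartilage, 509 in MC and 37.5 in bone. Cnmd, which encodes chondromodulin, had means of 163 RPKM, 35.7 and 0.06 in the same order, and did not pass between the cartilages (adjusted p = 0.064). Acan, the large aggregating proteoglycan of cartilage, was at 0.03 to 0.93 RPKM in bone, 13.3 to 123 in MC and 383 to 683 in condylar cartilage. Hapln1, which links aggrecan to hyaluronan, differed between the cartilages most, with means of 1587 RPKM in condylar cartilage and 10.1 in MC (log2 difference 7.66, adjusted p = 1.8e-11), and did not pass between MC and bone (log2 difference -0.10, adjusted p = 0.83). Mia, which encodes a secreted cartilage protein, had means of 10.8 RPKM in condylar cartilage and 9.10 in MC, a difference that did not pass (log2 difference 0.27, SE 0.46, adjusted p = 0.64). By genotype none of the 16 passed in MC or condylar cartilage, while in bone 9 of them were too low for the test to bear on them. In MC all 16 read higher in Fgfr2+/S252W with a median of 1.14, against 0.03 for all genes, and without library 1 of Fgfr2+/+ 13 did so with a median of 0.24. Osteoclast markers in MC summed to 29.5 to 33.3 RPKM in Fgfr2+/S252W and 41.6 to 99.0 in Fgfr2+/+, and macrophage markers to 36.34 to 50.1 and 13.5 to 36.27, without overlap, and their part in the genotype values of MC was not tested.

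**Figure D4:**
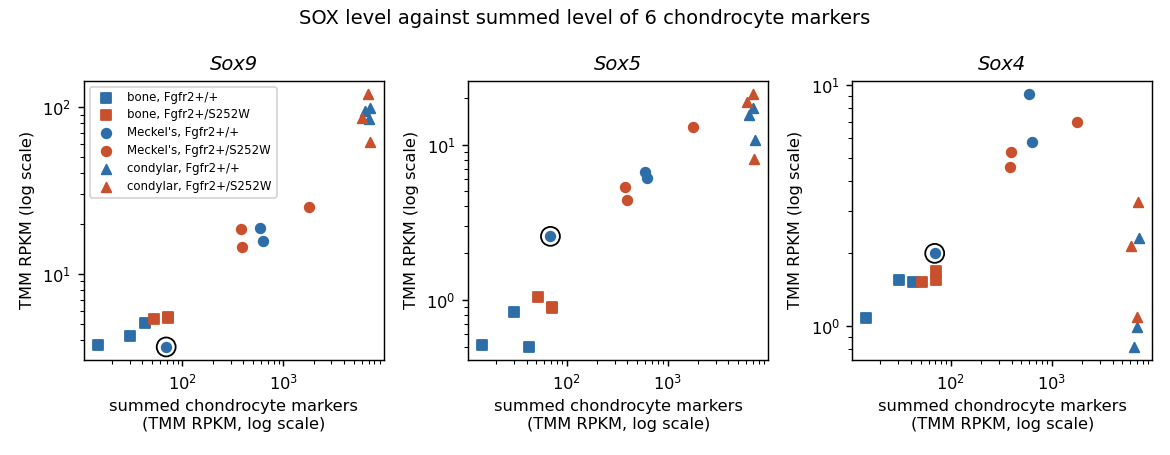
Levels of Sox9, Sox5 and Sox4 in TMM-normalized RPKM against the summed level of 6 chondrocyte markers in the same library, both on log axes; each point is 1 of 18 libraries, with squares for bone, circles for MC and triangles for condylar cartilage, and MC library 1 of Fgfr2+/+ is ringed. That library, at 69.1 RPKM of markers, lies beside the bone libraries for Sox9 (3.64) and for Sox4 (2.00), while Sox5 (2.56) lies between bone and the other MC libraries. Points of 1 embryo and of 1 tissue are not independent, and no correlation is given.

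Genes of the hypertrophic and osteoblast programs, on which SOX9 is known to act as a brake, were read in the same way. Of 9 genes listed, all passed the filter, and 3 were higher and 3 lower in condylar cartilage than in bone, where 22.6% of all genes were higher and 24.2% lower. Of the 3 higher, Col10a1 lay below 1 RPKM in every bone library (0.42 to 0.88), so its levels are given in place of a test. Col10a1, the collagen of hypertrophic chondrocytes, was at 334 to 1343 RPKM in condylar cartilage and at no more than 2.57 in the other tissues. Runx3 and Mef2c, transcription factors of chondrocyte maturation, were also higher there, by 1.77 and 0.90 log2 units (adjusted p = 3.9e-07 and 0.00013). Runx2, which drives osteoblast and hypertrophic fate, had means of 66.0 RPKM in condylar cartilage and 67.8 in bone (log2 difference -0.05, adjusted p = 0.88). Mmp13, a collagenase of late hypertrophic cartilage and bone, had means of 498 RPKM in bone, 10.8 in condylar cartilage and 2.68 in MC. In MC against bone, 5 of the 9 were lower (24.7% of all genes) and 1 was higher (24.6%). Between the cartilages 5 were higher in condylar cartilage (28.5%) and 2 lower (29.1%). Sp7, the osteoblast factor next to Runx2, was at 54.3 RPKM in MC library 1 of Fgfr2+/+, and the median of MC was 9.15.

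Among receptors and ligands that act on Sox9 in cartilage, 7 of 10 passed the filter. Fgfr3, the FGF receptor of chondrocytes, was higher in condylar cartilage than in bone by 3.37 log2 units and than in MC by 3.10 (adjusted p = 1.5e-10 and 1.2e-09). Pth1r, the receptor of parathyroid hormone-related protein, was higher by 2.53 and 4.44 (adjusted p = 9.9e-11 and 2.6e-12). Fgfr2, the mutated receptor, had another order, with mean levels of 72.0 RPKM in MC, 42.5 in bone and 23.5 in condylar cartilage. Both steps passed (adjusted p = 0.00056 for MC against bone and 1.0e-04 for condylar cartilage against bone). Ihh, a signal of prehypertrophic chondrocytes that did not pass the filter, was at 23.1 to 46.1 RPKM in condylar cartilage and had no count in any MC library. Pthlh, which encodes the ligand of Pth1r, was at 2.20 to 17.1 RPKM in MC and had no count in 5 of 6 condylar libraries. By genotype none of the 7 passed in any tissue.

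Of 10 listed cofactors and other chondrogenic transcription factors, 5 passed the filter. Wwp2, a ubiquitin ligase gene that hosts a microRNA of cartilage in an intron, had means of 106 RPKM in condylar cartilage, 41.9 in MC and 11.3 in bone, and each step passed (adjusted p = 7.4e-05 between the cartilages and 7.6e-05 between MC and bone). Crebbp, which encodes a coactivator of SOX9, was higher in MC than in bone (log2 difference 0.58, adjusted p = 0.00072). Foxc1 was higher in condylar cartilage than in bone (log2 difference 1.23, adjusted p = 2.2e-05). Between the cartilages 2 of the 5 were higher in condylar cartilage (28.5% of all genes) and 3 lower (29.1%), and by genotype none passed in any tissue.

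For the SOXC genes the markers of mesenchyme were read as a list. Of 9 genes, 6 passed the filter, of which Msx1 did so through MC and bone alone. The other 5 were lower in condylar cartilage than in MC, where 29.1% of all genes were lower. In MC against bone, 3 were higher (24.6% of all genes) and none was lower (24.7%). Prrx1, a homeobox gene of limb and facial mesenchyme, had means of 68.9 RPKM in MC, 20.9 in bone and 15.4 in condylar cartilage. Msx1 had means of 20.5, 8.75 and 0.24 in the same order and lay below 1 RPKM in every condylar library. The other 3 did not pass between MC and bone. Pdgfra, a receptor of mesenchymal cells, had means of 31.0 RPKM in MC and 44.8 in bone, Postn 206 and 255 and Twist1 4.65 and 6.73. Of 4 listed targets and partners of SOXC proteins, 2 passed the filter, Tead2 and Wnt5a, and both were lower in condylar cartilage than in MC (log2 differences -2.49 and -1.23, adjusted p = 1.9e-08 and 9.8e-06).

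Other members of the family were mostly below the filter. Of 14 others listed, 2 passed it. Sox12, the remaining SOXC gene, had medians of 4.34 RPKM in MC, 2.48 in bone and 0.48 in condylar cartilage. It was higher in MC than in bone (log2 difference 0.79, adjusted p = 0.0030). Sox12 was at 0.32 to 0.81 RPKM in the condylar libraries and passed the filter through MC and bone, so no test against condylar cartilage is given. Its log2 difference between condylar cartilage and MC was -3.08, and its tissue means had the same order as those of Sox11. Sox18, a gene of endothelial cells, was at 3.87 to 8.71 RPKM in bone, 0.16 to 6.25 in MC and 2.87 to 10.9 in condylar cartilage, and did not pass in any of the 3 comparisons. Endothelial markers summed to 36.4 to 51.8 RPKM in bone and to 1.17 to 5.17 in condylar cartilage. The source of Sox18 in condylar cartilage was not tested. Sox13, the remaining SOXD gene, was at 0.35 to 1.39 RPKM over all libraries and stayed under the filter. Sox10, the SOXE gene of neural crest and glia, was at 0.51 to 1.65 RPKM in condylar cartilage and had no count in 4 of 6 bone libraries. Sry, Sox1, Sox2, Sox3 and Sox14 had no count in any library.

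Genes with the most similar pattern were named by the root mean square difference of log2 levels over the 18 libraries, each gene centred on its own mean. For Sox9 these were Gfpt2 (0.35), Sidt2 (0.37) and Xylt1 (0.43), against a median of 1.92 over all genes. For Sox5 they were Scube3 (0.36), Col27a1 (0.51) and Eps8 (0.55), and for Sox6 Fads2 (0.21), Ahi1 (0.22) and Adgra3 (0.24). Sox8 was nearest to Proser2 (0.48), Hspg2 (0.51) and Slc44a2 (0.51), and Sox4 to Nynrin (0.33), Cic (0.34) and Prr12 (0.35). Sox11, with the fewest fragments, was nearest to Flot2 (0.61), Arrb2 (0.63) and Nfkb2 (0.68). Among the 6 genes themselves, Sox6 and Sox8 were the nearest pair (0.62), followed by Sox8 and Sox9 (0.71) and by Sox5 and Sox9 (0.75), while Sox9 and Sox11 were the farthest apart (2.70). Col27a1, a fibrillar collagen gene of cartilage, is also among the listed matrix targets.

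Ranked by group mean, each SOX gene gave an order of the 6 groups in which neighbours often overlapped. Sox9 ran from condylar cartilage (92.9 RPKM ± 7.02 in Fgfr2+/+ and 89.3 ± 29.3 in Fgfr2+/S252W, SD, n = 3 each) through MC (19.3 ± 5.32 in Fgfr2+/S252W and 12.8 ± 8.04 in Fgfr2+/+) to bone (5.45 ± 0.08 in Fgfr2+/S252W and 4.33 ± 0.67 in Fgfr2+/+). The step from condylar cartilage to MC was clear of overlap, as was the step between genotypes in bone, and the other 3 steps overlapped. In Sox6 the steps between tissues were clear and the steps between genotypes overlapped. In Sox5 the steps from MC to bone and between genotypes in bone were clear. Sox4 had 1 clear step, from Fgfr2+/S252W MC (5.62 ± 1.27) to Fgfr2+/S252W condylar cartilage (2.16 ± 1.09), and Sox8 had 1, from Fgfr2+/+ condylar cartilage (5.23 ± 1.32) to Fgfr2+/S252W MC (1.75 ± 0.99). The only clear step of Sox11 was that from Fgfr2+/+ bone (1.03 ± 0.13) to Fgfr2+/S252W condylar cartilage (0.51 ± 0.28).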

How the data were processed

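Captured RNA had been amplified without strand information and sequenced as paired reads. Per the labels and methods, the authors aligned with STAR (mm10) and assigned read pairs to Ensembl exons by featureCounts v1.5.0-p1 without strand, and the deposited values are raw counts. In R 4.3.3, genes were retained where FPKM exceeded 1 in a share of at least 0.5 of the libraries, leaving 11469. TMM, voom, lmFit and eBayes followed (limma 3.58.1, edgeR 4.0.16), with Benjamini-Hochberg adjustment over these genes and a threshold of 0.05. Genotype effects came from 1 mean for each of the 6 groups. Tissue differences and interactions had the embryo as a block. The embryo was inferred from the stem of the sample descriptions, and deviations of libraries of 1 embryo from their group means correlated at -0.086 to 0.105, above 0.1 in 1 of 18 pairs. For genotype effects the p-values rest on a spread within groups, pooled over the 6 groups and adjusted by eBayes towards that of other genes. For tissue differences and interactions they rest on the spread of tissue differences within embryos, pooled over the 6 embryos and adjusted likewise. Each group held 3 embryos.

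Other settings tried were DESeq2 1.42.0 and the quasi-likelihood test of edgeR, other scaling, filters, weights and blocks, and each library left out. The fits were tested on simulated data with the same dispersion for every gene, no library that stands apart and changes planted in well counted genes only. That setting does not cover the few fragments of Sox11 or the uneven MC libraries. Named are the 6 SOX genes, the genes of fixed lists and the 3 genes nearest in pattern to each SOX gene, and Ibsp was named after its values were seen. Genes and lists were chosen with earlier results of these data known.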

Additional observations from a re-analysis of the deposited data

How the results depend on the processing

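Across 35 alternatives to the fits, including each of 18 libraries left out, 282 of 283 counts of called SOX genes or of ratios stayed within 1.5 times the reported count. The reported count was 0 for every genotype and interaction test and for the ratios between tissues, so many of these matches are 0 against 0. The exception was MC against bone with total counts and no TMM factors, an alternative chosen after seeing the data, where 2 SOX genes were called in place of 5. There the median of all genes moved to -1.07, and Sox6 (-0.41), Sox8 (-0.18) and Sox11 (-0.43) read below 0. Leaving out 1 library gave 4 to 5 calls for MC against bone, 5 to 5 for condylar cartilage against bone, 6 to 6 between the cartilages, and 0 to 0 for each genotype and interaction test. Sox8 between MC and bone lost its call without any of the 3 Fgfr2+/S252W bone libraries, Fgfr2+/+ bone libraries 2 or 3, Fgfr2+/S252W MC libraries 1 or 3, or Fgfr2+/+ MC library 2 (log2 difference 0.70 to 0.92). The cause of these changes was not tested.

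Differences that had not passed and turned sign when 1 library was left out ranged as follows. Sox4 by genotype in MC lay between -0.35 and 0.91, Sox6 between -0.16 and 0.17 in MC, -0.0038 and 0.23 in bone and -0.0069 and 0.26 in condylar cartilage. Sox5 by genotype in condylar cartilage lay between -0.17 and 0.50 and Sox9 between -0.34 and 0.13. Sox4 between condylar cartilage and bone lay between -0.092 and 0.38, and the Sox9 interaction of MC and bone between -0.12 and 1.01. Sox6 by genotype in MC read 0.0020 with library sizes free of Gm42418 and mitochondrial genes, 0.12 with these and no TMM factors, 0.082 with quality weights and 0.16 without the 3 doubted libraries (MC library 1 of Fgfr2+/+ and both condylar libraries numbered 3). Without these 3, Sox4 by genotype in MC read -0.35, Sox9 in condylar cartilage 0.19 and the Sox9 interaction of MC and bone -0.12. Without both condylar libraries numbered 3, Sox9 by genotype in condylar cartilage read 0.18. With no TMM factors, Sox5 and Sox6 by genotype in condylar cartilage read -0.045 and -0.022. Sox4 between condylar cartilage and bone read -0.00301 with quality weights, -0.054 in Fgfr2+/+ alone, -0.22 with no TMM factors, -0.11 also without Gm42418 and mitochondrial genes, -0.27 without both condylar libraries numbered 3 and -0.40 without all 3 doubted libraries.

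Over all genes, limma-voom called 10 by genotype in bone, and the count was 1 with no TMM factors, 3 with these and no Gm42418 or mitochondrial genes, 4 by edgeR, 16 by DESeq2, 21 under filterByExpr, 53 with no filter, 141 from bone libraries alone and 589 with quality weights. In MC, where 0 were called, edgeR called 90, DESeq2 417 and the fit with no filter 45. Without the 3 doubted libraries 120 genes were called in bone. No SOX gene was called by genotype in any of these.

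With the replicate number as a replicate block within tissue, 0 SOX genes were called by genotype in bone, MC or condylar cartilage, as without it, and Sox9 in MC read 0.88 (adjusted p = 0.30). The numbers did not pair the genotypes: same-numbered libraries correlated from -0.15 to 0.28, above 0.1 in 3 of 9 pairs. With no replicate block, that is without the embryo term, 5, 5 and 6 SOX genes were called in the tissue comparisons and none in the interactions. Counts of 2 to 64 fragments for Sox11 and of 10 to 52 for Sox8 in MC and bone limit what could be seen for these genes.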
